A study of Mus musculus with 4 samples.

Results

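Homeostatic microglia without state genes were 2229 of 12883 cells (17.3%) in 4 single-cell libraries of mouse brain myeloid cells. A cell was kept when its barcode had at least 2000 unique molecular identifiers (UMIs, each counting 1 captured RNA molecule), at least 500 genes and at most 10% of UMIs from mitochondrial (mt-) genes. A kept cell was a member when it had at least 1 UMI of P2ry12 and of Tmem119 and none of 18 state genes. These were the 6 MGnD genes Clec7a, Itgax, Lpl, Cst7, Igf1 and Baiap2l2 (MGnD is the microglial neurodegenerative phenotype, also known as disease-associated microglia), the 5 interferon genes Ifit1, Ifit2, Ifit3, Rsad2 and Cxcl10, the MHC class II genes H2-Aa and H2-Eb1, the cell cycle genes Top2a and Mki67, the heat-shock genes Hspa1a and Hspa1b, and Tnf. There were 579 members in miR-155 cKO replicate 1, 385 in miR-155 cKO replicate 2, 748 in Control replicate 1 and 517 in Control replicate 2; pairs of values below keep this replicate order.

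All 4 libraries came from the left brain hemisphere of mice labelled female and 4 months old, as CD11b+/CD45+ cells sorted after a Percoll gradient. The tested mice were APP/PS1:miR-155 cKO (2 libraries), in which the microRNA miR-155 was deleted in microglia according to the labels. The Control mice were APP/PS1 (2 libraries), so both groups carried the APP/PS1 transgenes, an amyloid model of Alzheimer's disease. The labels name neither the Cre driver nor the deleted part of the miR-155 locus, and they call the libraries biological replicates.

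Some properties of the libraries touch the results. The deposited total was 33130800 to 47574406 UMIs per library, and the kept cells had a median of 6412 to 7431 UMIs. The library labelled Control replicate 1 had no UMI of Xist, the noncoding RNA of the inactive X chromosome, in its members, where the other 3 libraries had 1819 to 1971 CPM (the usual unit of UMIs relative to the library's sum; without TMM scaling unless stated). It also had no UMI of the Y-linked genes Ddx3y, Eif2s3y, Kdm5d and Uty in members, so it did not match its label on Xist. Genes called by genotype or by interaction are given with and without this library. Genes that did not pass are mostly given with all libraries only. In the deposited names, 3 libraries share a run code and that of cKO replicate 2 differs, so leaving it out gives the comparison within the shared code. Kept cells of different libraries shared 12 barcodes, and no barcode was shared by members. In the members, Mir155hg, the host transcript of miR-155, had 0 UMIs in all 4 libraries, which allows up to 0.954 and 1.19 CPM in cKO and up to 0.744 and 1.01 CPM in Control (3 counts, counting error only). Over all kept cells it had 1 and 1 UMIs in cKO and 7 and 11 in Control, so the deletion had no direct check in the members.

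Microglia are the resident macrophages of the brain. In the homeostatic state they survey the tissue and express the ADP receptor P2ry12, the membrane protein Tmem119 and the fractalkine receptor Cx3cr1, a programme that depends on TGF-beta signalling. Near amyloid plaques microglia shift to the MGnD state, with high Apoe, Clec7a and Itgax and lower homeostatic genes. MiR-155 is a microRNA induced by inflammatory signals in myeloid cells, and it represses transcripts that carry matches to its seed.

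P2ry12 and Tmem119 chose the members, and their values are a description. The median member had 16 and 20 UMIs of P2ry12 in the cKO libraries and 17 and 16 in the Control libraries. The corresponding medians of Tmem119 were 7 and 9 in cKO and 6 and 7 in Control. Only 1 and 2 members in cKO and 3 and 2 in Control entered with a single P2ry12 UMI. A single Tmem119 UMI was more frequent, in 16 and 6 members in cKO and 18 and 12 in Control. On the other side of the state-gene limit were 1491 cells with P2ry12, Tmem119 and exactly 1 state-gene UMI. The markers that the rule did not use were Crybb1, a lens crystallin that marks homeostatic mouse microglia, and Ecscr, a cell-surface protein first described in endothelial cells. Crybb1 was at 372 and 346 CPM in cKO members and at 342 and 359 CPM in Control members. Cells with exactly 1 state-gene UMI had 376 and 312 CPM of Crybb1 in cKO and 346 and 316 CPM in Control, slightly above the members of the same library in replicate 1 of both groups and below them in replicate 2 of both. Cells with 3 or more MGnD genes had 182 and 124 CPM of Crybb1 in cKO and 147 and 108 CPM in Control, below the members in every library. Ecscr was at 403 and 411 CPM in cKO members and 427 and 463 CPM in Control members, and at 158 and 150 CPM in cKO and 164 and 123 CPM in Control among cells with 3 or more MGnD genes. These classes were not matched for depth. Cells with 3 or more MGnD genes had a median of 12019 and 14090 UMIs in cKO and 12937 and 13819 UMIs in Control. Members had 5214 and 6506 UMIs in cKO and 5181 and 5500 UMIs in Control.

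Most markers of other myeloid and blood cells were at or near 0 in the members. Of 8 markers of border-associated macrophages, 6 were at 0 in all 4 libraries (Cbr2, Cd163, Clec12a, F13a1, Lyve1 and Ms4a7), and the summed level was 0.954 to 2.78 CPM in cKO and 2.98 to 4.05 CPM in Control. The 6 monocyte markers summed to 8.59 to 10.7 CPM in cKO and 5.06 to 8.68 CPM in Control, with Ly6c2 and Chil3 at 0. The 6 neutrophil markers summed to at most 0.318 CPM in cKO and 0.496 CPM in Control, and the 3 erythroid markers were at 0. The 4 B cell markers summed to 264 to 275 CPM in cKO and 279 to 333 CPM in Control, with Cd79a and Ms4a1 at 0. This sum, which was not low, came from Cd79b and mainly Ighm, and state-gene-positive microglia had 265 to 316 CPM. The 4 vascular markers summed to 31.4 to 32.1 CPM in cKO members and 25.1 to 31.7 CPM in Control members, nearly all of it Pecam1, against 24.8 to 30.3 CPM in state-gene-positive microglia. The 4 oligodendrocyte markers, mainly Mbp, summed to 23.2 to 23.8 CPM in cKO members and 24.6 to 26.3 CPM in Control members. The part of cells or RNA of these types in the results was not tested. Free RNA in droplets also carries microglial transcripts: at 2000 UMIs, barcodes with the composition of near-empty droplets (those of at most 100 UMIs) would meet the gene part of the rule in 6.85% and 4.21% of cases in the cKO libraries and in 5.02% and 6.17% in the Control libraries.

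The members made up 16.2% and 14.4% of kept cells in the cKO libraries, against 18.7% and 19.6% in the Control libraries. The 95% Wilson intervals were 15.0 to 17.4% and 13.2 to 15.8% in cKO, and 17.5 to 19.9% and 18.2 to 21.2% in Control, and they cover counting error only. Both cKO libraries were below both Control libraries. The cKO mean was 15.3 ± 1.21% and the Control mean 19.2 ± 0.658% (SD over 2 libraries). They differed by -3.87 percentage points (exact two-sided permutation test, p = 0.333, the smallest that 2 against 2 libraries can give). Without the heat-shock genes Hspa1a and Hspa1b in the rule the direction turned. The share was then 32.2% and 40.1% in cKO, against 33.0% and 29.0% in Control, a difference of 5.16 points (exact two-sided p = 0.667), and the groups overlapped.

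**Figure D1:**
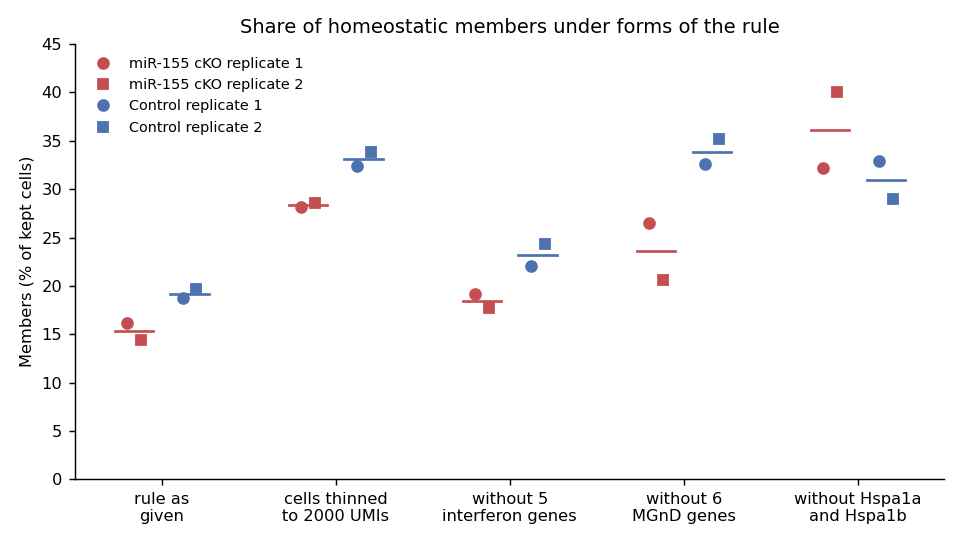
Members as a percentage of kept cells (y axis) in each library under 5 forms of the rule (x axis), with a line at each group's mean (n = 2 libraries each). Both cKO libraries are below both Control libraries in 4 forms, and with Hspa1a and Hspa1b left out of the rule the groups overlap, at 32.2% and 40.1% in cKO and 33.0% and 29.0% in Control.

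The share of members varied with depth. A deeper cell has more chances to show a state-gene UMI. Deep cells also differed in state, since cells with 3 or more MGnD genes had a median of 12019 to 14090 UMIs. The parts of sampling and of state in the share were not tested. Among cells of 2000 to 4000 UMIs, the cKO mean was 31.0 ± 3.02% and the Control mean 31.8 ± 1.63% (SD over 2 libraries). At 4000 to 6000 UMIs they were 22.3 ± 3.46% in cKO and 33.6 ± 1.37% in Control. At 6000 to 8000 UMIs they were 19.2 ± 0.263% in cKO and 22.2 ± 1.36% in Control. At 8000 to 12000 UMIs cKO was the higher, at 7.78 ± 5.15% against 5.71 ± 1.78% in Control, with overlapping libraries (exact two-sided p = 1.00). At 12000 UMIs or more they were 1.48 ± 0.151% in cKO and 1.30 ± 0.159% in Control. Of the 5 depth classes, the groups stood farthest apart at 4000 to 6000 UMIs, by -11.3 points (exact two-sided p = 0.333). When every cell was first thinned at random to 2000 UMIs, the rule took 28.2% and 28.5% of kept cells in cKO, against 32.4% and 33.9% in Control. The members' median depth was 5214 and 6506 UMIs in cKO and 5181 and 5500 UMIs in Control. That of the state-gene-positive microglia (cells with P2ry12, Tmem119 and at least 1 state-gene UMI) was 7129 and 7710.5 UMIs in cKO, and 7686 and 7522 UMIs in Control.

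The state genes that kept cells out differed between the libraries. Of all cells with P2ry12 and Tmem119, 51.4% and 63.4% had a heat-shock UMI in cKO, against 43.5% and 31.1% in Control, with both cKO libraries above both Control libraries. Hspa1a and Hspa1b encode the inducible Hsp70 chaperones, which respond to heat, stress and tissue handling. MGnD genes went the other way, at 48.7% and 38.4% in cKO, against 52.4% and 53.7% in Control, again without overlap. MHC class II genes were detected in 8.01% and 8.99% of these cells in cKO, against 4.42% and 5.76% in Control. Tnf was detected in 22.0% and 20.2% in cKO, against 13.6% and 21.8% in Control, where the groups overlapped. None of these comparisons of 2 against 2 libraries could pass 0.05. Free RNA moved with the heat-shock values: Hspa1a was at 235 and 525 CPM in near-empty droplets of the cKO libraries, and at 163 and 81.2 CPM in those of the Control libraries, and its part in the shares was not tested.

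**Figure D2:**
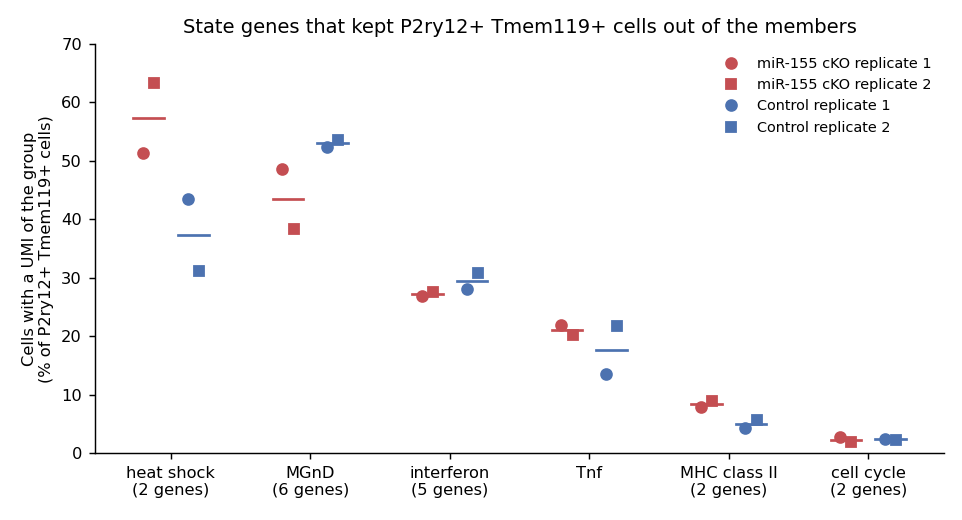
Percentage of P2ry12+ Tmem119+ cells with at least 1 UMI of each group of state genes (y axis), by library, with a line at each group's mean (n = 2 libraries each). Heat-shock genes are highest in cKO (51.4% and 63.4%, against 43.5% and 31.1% in Control), while MGnD genes are lower in cKO (48.7% and 38.4%, against 52.4% and 53.7%).

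Gene lists outside the rule were compared across cell classes by summed level, as a description, since the rule sorted the cells. Depth was not matched between these classes. Cells with 2 or more interferon genes had a median of 12417.5 and 10195 UMIs in cKO and 13186.5 and 13090 UMIs in Control. The medians of members and of cells with 3 or more MGnD genes are given above. The 27 homeostatic genes summed to 75201 and 75556 CPM in cKO members and 87167 and 73974 CPM in Control members. Cells excluded by heat-shock genes alone (2074 cells) had 74113 and 73121 CPM in cKO and 84816 and 71533 CPM in Control, slightly below the members of the same library each time. In cells with 3 or more MGnD genes (2847 cells) the homeostatic sum was 60372 and 60368 CPM in cKO and 65128 and 55285 CPM in Control. The 32 MGnD genes outside the rule summed to 23837 and 22577 CPM in cKO members and 23108 and 22807 CPM in Control members, and to 56656 and 54714 CPM in cKO and 55111 and 59761 CPM in Control among cells with 3 or more MGnD genes. The 24 type I interferon genes outside the rule summed to 982 and 1125 CPM in cKO members and 980 and 1064 CPM in Control members, against 3802 and 5095 CPM in cKO and 3994 and 4177 CPM in Control among cells with 2 or more interferon genes. On the MGnD list, cells excluded by heat-shock genes alone had 21414 to 23269 CPM and those excluded by Tnf alone 22477 to 25086 CPM, close to the members. On the interferon list they had 1029 to 1234 CPM and 1109 to 1252 CPM, slightly above the members of the same library. These cells lack the MGnD and interferon genes of the rule, as members do, while the classes with higher sums were chosen by those genes. The contrast between the classes on these lists therefore follows from how they were defined.

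**Figure D3:**
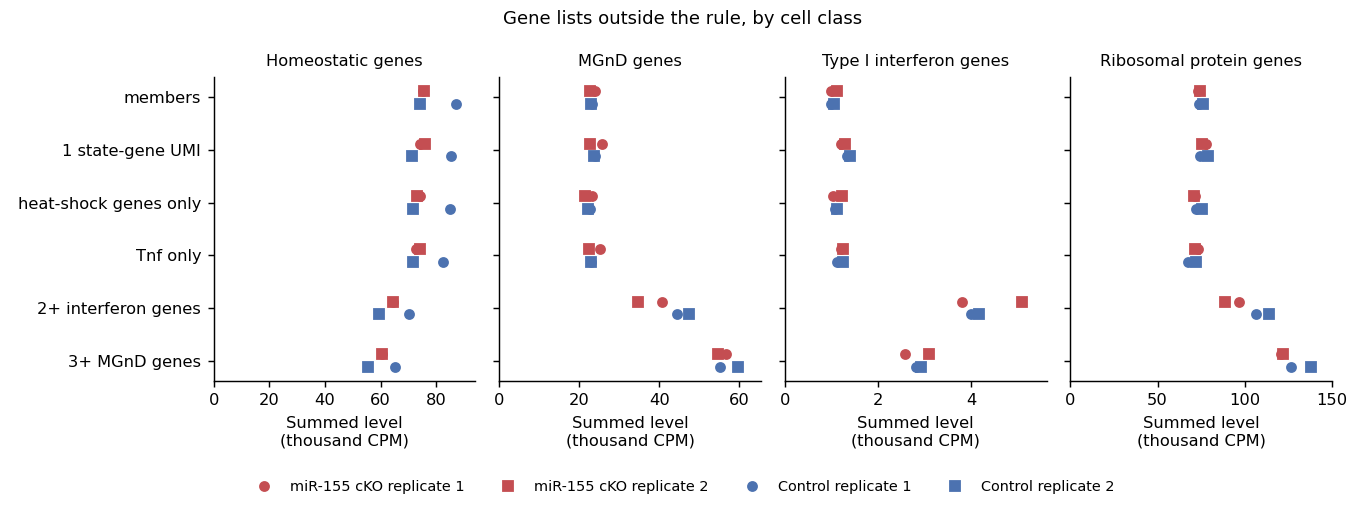
Summed level of 4 gene lists outside the rule (x axis, in units of 1000 CPM) by cell class (y axis), 1 point per library. Members, cells with 1 state-gene UMI and cells excluded by heat-shock genes or Tnf alone lie together, and cells with 3 or more MGnD genes have lower homeostatic sums (members 73974 to 87167 CPM) and higher MGnD and ribosomal sums. The classes were defined by state-gene UMIs and were not matched for depth.

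Members were then set against state-gene-positive microglia at matched depth, with the same number of cells of both classes in each bin of 500 UMIs in every library (579 and 383 per class in cKO, 746 and 517 in Control). The 20 genes of the rule were left out. The rule sorted the same cells, so a difference in genes that go with the state genes follows from the sorting and is a description of the population. The edgeR quasi-likelihood test with library as block and Benjamini-Hochberg adjustment called 749 of 10290 genes (7.28% of those tested), 227 higher (2.21%) and 522 lower (5.07%) in members. Without Control replicate 1 the count was 479. Over all tested genes, 11.1% were higher in members in 4 of 4 libraries and 12.2% lower. The increases were small, at most 0.46 on the log2 scale among the genes named by size. Fewer of them passed in some alternative fits. Without a library block 9 genes were called higher and 173 lower, and with DESeq2 43 higher and 251 lower. In cells thinned to 2000 UMIs 64 were called higher and 249 lower. Values per library below are CPM scaled with TMM factors.

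Homeostatic genes were higher in members: of 27 tested, 21 were called higher and 1 lower, with a median log2 fold change of 0.12, where the median of all tested genes was 0.00. Crybb1 was at 366 and 334 CPM in cKO members and 338 and 373 CPM in Control members, against 299 and 259 CPM in cKO and 267 and 273 CPM in Control state-gene-positive microglia. Members were above their own library's state-gene-positive cells in all 4, with a log2 fold change of 0.36 ± 0.04 (SE, edgeR adjusted p = 6.13e-10). Ecscr was higher by 0.30 ± 0.04, and P2ry13, a purinergic receptor of the same family as P2ry12, by 0.20 ± 0.04. Cx3cr1 was higher by 0.12 ± 0.03, and Tgfbr1, the type I receptor of TGF-beta, by 0.15 ± 0.03. Of the 13 tested genes of TGF-beta signalling, 2 were called, Tgfbr1 and the co-repressor Ski (0.14 ± 0.05). Tgfbr1 passed in 10 of 12 alternatives run and Ski in 2. The exception among homeostatic genes was Serpine2, a serine protease inhibitor, which was lower in members by 0.36 on the log2 scale, at 352 and 353 CPM in cKO members and 389 and 392 CPM in Control members, against 440 and 444 CPM in cKO and 515 and 503 CPM in Control state-gene-positive cells.

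Beyond the homeostatic list, the largest increases belonged to less familiar genes. Bank1, a B cell scaffold protein also expressed in microglia, was at 84.1 and 71.1 CPM in cKO members and 78.2 and 75.4 CPM in Control members, against 60.1 and 59.8 CPM in cKO and 49.3 and 58.7 CPM in Control state-gene-positive cells, a log2 fold change of 0.46 ± 0.08 (edgeR adjusted p = 3.00e-06). Prkce, an isoform of protein kinase C, had a log2 fold change of 0.44 ± 0.11, Cep68, a centrosomal protein, 0.44 ± 0.07, and Tspan18, a tetraspanin, 0.44 ± 0.10. Immediate-early genes, the transcription factors and regulators induced within minutes of stimulation, were also higher: of 19 tested, 10 were called higher and none lower. Klf4 was higher by 0.31 ± 0.05 and Fosb by 0.24 ± 0.04. Klf4 was at 294 and 423 CPM in cKO members and 381 and 166 CPM in Control members, so it differed more between libraries than between classes. Among transcription factors of microglia, Maf was higher by 0.21 ± 0.04 and Cebpb, a driver of inflammatory genes, was lower by 0.16 on the log2 scale.

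MGnD genes outside the rule were lower in members. Of the 32 on the list, 5 did not pass the filter on low counts (Ch25h, Dkk2, Gpnmb, Lgals3 and Mamdc2). Another 5 (Axl, Cybb, Fabp5, Lilrb4a and Spp1) passed it here but not in members alone, so they entered through the state-gene-positive cells and had to be lower. The other 22 were called lower too, which describes the sorting. The lipid carrier Apoe, a risk gene of Alzheimer's disease, was at 551 and 589 CPM in cKO members and 344 and 643 CPM in Control members, against 2555 and 1372 CPM in cKO and 1703 and 2077 CPM in Control state-gene-positive cells, a log2 fold change of -1.87 ± 0.06 (edgeR adjusted p = 2.31e-41). Apoe did not vanish from members: 29.0 to 41.6% of members thinned to 2000 UMIs had an Apoe UMI, against 47.7 to 61.1% of state-gene-positive cells, with free RNA giving 2.62 to 8.83 UMIs of Apoe per 2000 in near-empty droplets. Axl, a receptor for apoptotic cells, was at 3.13 and 3.84 CPM in cKO members and 2.94 and 3.15 CPM in Control members, against 34.5 and 27.2 CPM in cKO and 38.0 and 34.9 CPM in Control state-gene-positive cells, a log2 fold change of -3.39 ± 0.18. Fabp5, a fatty acid carrier, had -3.07 ± 0.20, and the growth factor Csf1 had -1.54 ± 0.11.

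Interferon and antigen-presentation genes were lower as well. Of the 22 type I interferon genes that were tested, 21 were called lower, with Irf9 as the exception; Oas1a and Zbp1 passed the filter here but not in members alone. Isg15, a ubiquitin-like interferon product, was at 16.6 and 15.4 CPM in cKO members and 12.5 and 24.9 CPM in Control members, against 80.9 and 75.4 CPM in cKO and 65.4 and 64.4 CPM in Control state-gene-positive cells, a log2 fold change of -2.07 ± 0.11. Ifi27l2a had -1.53 ± 0.05 and Ifitm3 -1.85 ± 0.08. Of 9 antigen-presentation genes, 7 were called lower, led by Cd74, the invariant chain of MHC class II, with -2.83 ± 0.10, while the MHC class I gene H2-D1 had -0.36 ± 0.04. Lysosomal genes (12 of 21 lower, 1 higher), glycolytic genes (9 of 13 lower), nuclear-encoded respiratory genes (12 of 24 lower) and ribosomal protein genes (72 of 74 lower) were called lower in part or nearly all. Of other lists, purinergic receptors and ectoenzymes had 3 of 7 higher, lipid genes 2 of 16 higher and 6 lower, complement and Fc receptor genes 1 of 12 higher and 3 lower, and cell cycle genes 4 of 12 lower. The median of the ribosomal list was -0.26. The 13 heat-shock genes outside the rule had 7 called lower, with Hsp90ab1, a constitutive chaperone, at -0.32 ± 0.04.

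Against the nearest cells outside the members, those with exactly 1 state-gene UMI, 17 genes were called, all lower in members, and all 17 were among the 749. They include Ifi27l2a (log2 fold change -0.62), Apoe (-0.36), Isg15 (-0.91), Ccl3 (-0.27) and Cd74 (-0.74). These examples were chosen after their values were seen. For each of them the difference was smaller than against all state-gene-positive cells.

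**Figure D4:**
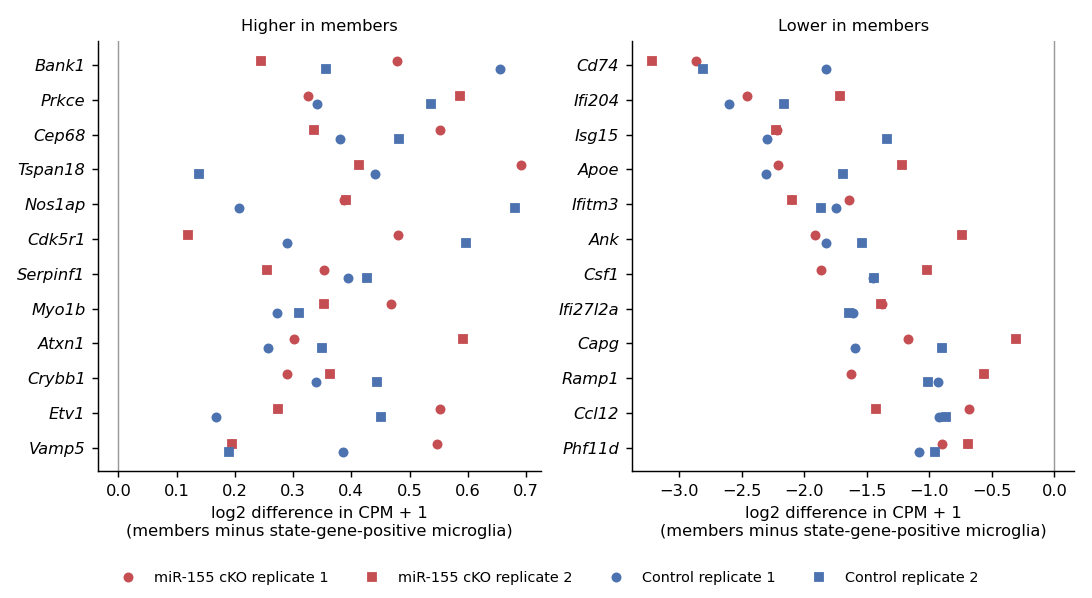
Log2 difference of CPM + 1 (x axis), members minus state-gene-positive microglia at matched depth, for the 12 genes with the largest increase (left panel) and the 12 with the largest decrease (right panel) among called genes with an average log2 CPM of at least 5, 1 point per library. All 24 genes lie on 1 side of 0 in all 4 libraries, with Crybb1 between 0.29 and 0.44 and Apoe between -2.31 and -1.22.

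Within members, the genotype comparison asked whether cells with no UMI of the state genes differed between miR-155 cKO and Control. Members were not free of other activation transcripts, since Ccl3 and Ccl4, for example, were detected in part of them. Of 10329 genes tested, edgeR called 3 (0.029% of those tested), 1 higher (0.00968%) and 2 lower (0.0194%) in cKO. An unadjusted p under 0.05 was found for 507. Across all tested genes the 2 groups did not overlap for 33.2% (16.5% higher and 16.7% lower in cKO). Without a library the count was 5 (cKO replicate 1), 28 (Control replicate 1) or 43 (Control replicate 2), and the same 3 genes were among them each time.

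Cdkn1a, which encodes the cell cycle inhibitor p21, was at 46.1 and 55.0 CPM in cKO members, against 18.1 and 17.0 CPM in Control members. Both cKO libraries lay far above both Control libraries. The log2 fold change was 1.51 ± 0.17 (SE, edgeR adjusted p = 0.00026). Cells with at least 1 Cdkn1a UMI at 2000 UMIs were 4.84% and 5.45% of members in cKO and 2.94% and 2.51% in Control. A single member held at most 17 and 20 Cdkn1a UMIs in cKO and 5 and 4 in Control. Of the other 8 tested genes of the p53 pathway none was called, and the median of the list was 0.24.

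Cx3cr1, the receptor for the neuronal chemokine fractalkine, was at 2633 and 2878 CPM in cKO members, against 5494 and 4762 CPM in Control members. The log2 fold change was -0.90 ± 0.10 (edgeR adjusted p = 0.00026), and nearly every member carried the transcript (98.8% and 98.4% in cKO at 2000 UMIs, against 99.9% and all in Control). It was the only homeostatic gene of 27 that passed. Because the labels do not name the Cre driver, the sources used here do not say whether the cKO mice carry an altered Cx3cr1 allele, and a part of such an allele in this value was not tested. Hist1h2ac, one of several nearly identical histone H2A genes, was at 36.0 and 42.6 CPM in cKO, against 84.7 and 119.9 CPM in Control. Its log2 fold change was -1.37 ± 0.16 (edgeR adjusted p = 0.00026). Reads of such genes are hard to assign to 1 gene, and how the counting treated them was not checked. In GRCm38, Cdkn1a lies on chromosome 17 (29090976-29100727, plus strand), Cx3cr1 on chromosome 9 (119901616-120069879, minus strand) and Hist1h2ac on chromosome 13 (23681467-23683948, minus strand). Without Control replicate 1, the log2 fold changes were 1.56 for Cdkn1a, -0.79 for Cx3cr1 and -1.62 for Hist1h2ac, and within the shared run code, without cKO replicate 2, they were 1.39, -0.96 and -1.49. All 3 passed the threshold under each of these.

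**Figure D5:**
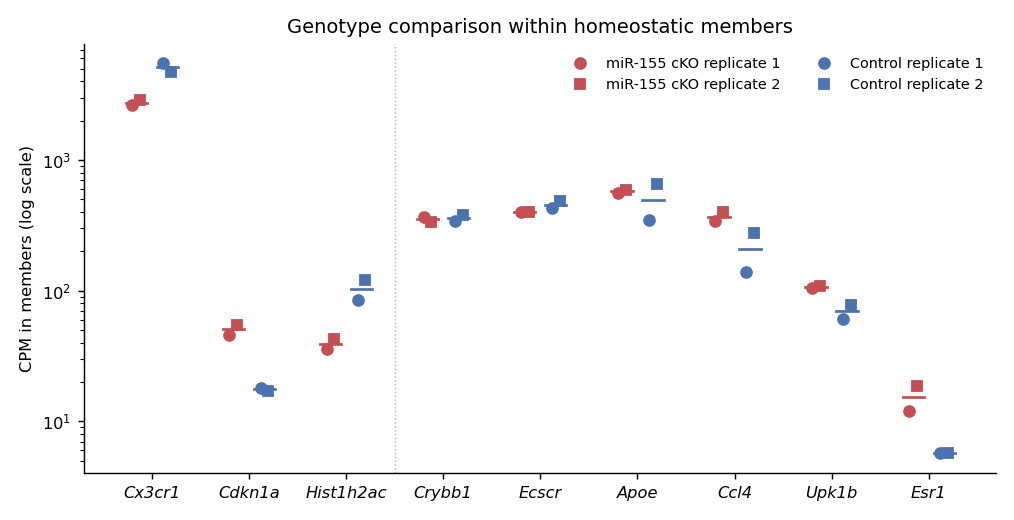
CPM in members (y axis, log scale, TMM-scaled) of 9 genes in each library, cKO left and Control right of each gene, with a line at the group mean (n = 2 libraries each). Left of the dotted line are the 3 genes that passed (Cx3cr1, Cdkn1a and Hist1h2ac), and right of it 6 that did not, such as Crybb1 at 369 and 338 CPM in cKO and 341 and 377 CPM in Control.

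Other genes did not reach the threshold. Crybb1 was at 369 and 338 CPM in cKO members, against 341 and 377 CPM in Control members, with a log2 fold change of -0.02 ± 0.10 (edgeR adjusted p = 0.991), and the groups overlapped. Upk1b, a tetraspanin, was at 105 and 108 CPM in cKO, against 60.9 and 77.7 CPM in Control, with a log2 fold change of 0.64 ± 0.12 (edgeR adjusted p = 0.130). Esr1, the estrogen receptor alpha, was at 12 and 18.6 CPM in cKO, against 5.70 and 5.68 CPM in Control (edgeR adjusted p = 0.453). Id2, a transcriptional inhibitor, had a log2 fold change of 0.52, and the histone gene Hist1h2be -0.64, without passing. The cytokine co-receptor Il6st was at 190 and 167 CPM in cKO, against 286 and 219 CPM in Control, and also did not pass (edgeR adjusted p = 0.486). Trem2, the lipid receptor needed for the MGnD state, was at 2086 and 2138 CPM in cKO, against 2527 and 2539 CPM in Control, with a log2 fold change of -0.26 ± 0.10 (edgeR adjusted p = 0.991). Not passing was not stable for all of these genes. Of the 15 alternatives, Esr1 passed in 4, and Upk1b, Id2, Hist1h2be and Il6st in 3 each. Crybb1 and Trem2 passed in none. Apoe was at 557 and 593 CPM in cKO members, against 347 and 651 CPM in Control members, and overlapped. Its genotype log2 fold change was 0.21 with all libraries, -0.18 without Control replicate 1 and 0.73 without Control replicate 2, where it passed. Among the lists, the homeostatic genes had a median log2 fold change of -0.03, MGnD genes -0.08, type I interferon genes -0.03, immediate-early genes 0.11 (17 of 19 above 0) and heat-shock genes 0.13 (12 of 13 above 0), where the median of all tested genes was 0.00. With 1 library left out these medians were -0.07 to 0.00 (homeostatic), -0.13 to 0.00 (MGnD), -0.11 to 0.07 (interferon), 0.05 to 0.19 (immediate-early) and 0.03 to 0.29 (heat shock), the lowest of the last 2 without cKO replicate 2. The 13 mitochondrially encoded genes summed to 19466 and 18880 CPM in cKO members, against 18563 and 24290 CPM in Control members, so only Control replicate 2 stood apart. Their median log2 fold change was -0.23 with all libraries and 0.01 without Control replicate 2. The median of 74 ribosomal protein genes was -0.08 with all libraries and -0.03 without Control replicate 2. No gene of the MGnD, interferon, immediate-early or heat-shock lists was called. For the MGnD list only 22 of 32 genes were tested, because members carry few of their UMIs.

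MiR-155 acts through its seed (nucleotides 2 to 8, in capitals), shown here with its 2 mature forms as RefSeq (GRCm38.p6) gives them, on chromosome 16 (plus strand, 84714143-84714165 for 5p and 84714182-84714202 for 3p):
mmu-miR-155-5p: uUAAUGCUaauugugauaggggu
mmu-miR-155-3p: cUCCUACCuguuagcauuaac
The site for miR-155-5p is AGCATTA, the match to its seed, on the transcript strand. For each gene the longest 3′ UTR in GENCODE M21 (GRCm38) was searched on that strand alone, and 9.61% of the 9668 tested genes with such a UTR held the site. Of a list of 15 published miR-155 targets, 11 held a site. For example, those of Socs1, which limits cytokine signalling, of the phosphatase Inpp5d and of the myeloid factor Spi1, with the site in capitals and 10 flanking bases on each side, read:
Socs1: gctgtgccgcAGCATTAagtgggggcg
Inpp5d: gtttttaaaaAGCATTAaagaaaacca
Spi1: cgccggccatAGCATTAacccgtcgcc
The capitals lie at chromosome 16 10784207-10784213 (minus strand) for Socs1, chromosome 1 87719838-87719844 (plus strand) for Inpp5d and chromosome 2 91115437-91115443 (plus strand) for Spi1. None of the 14 target genes tested passed. Socs1 was at 11.4 and 15.9 CPM in cKO members, against 10.7 and 13.1 CPM in Control members. Inpp5d was at 405 and 461 CPM in cKO members, against 402 and 434 CPM in Control members. Spi1 was at 409 and 353 CPM in cKO members, against 400.3 and 422 CPM in Control members. All 3 overlapped between the groups. The median log2 fold change was -0.01 in 929 genes with a site and 0.00 in the others. Cx3cr1, Cdkn1a and Hist1h2ac had no site in these UTRs, which says only that these letters are not in them.

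The interaction test asked whether the genotype difference in members differed from that in depth-matched state-gene-positive microglia. Of 10686 genes, edgeR called 4 (0.0374% of those tested), 3 higher (0.0281%) and 1 lower (0.00936%). Ccl4, a chemokine of activated microglia, was at 345 and 408 CPM (unscaled, depth-matched) in cKO members and 140 and 261 CPM in Control members. In state-gene-positive cells it was at 432 and 420 CPM in cKO and 357 and 583 CPM in Control. The difference of the 2 genotype effects was 1.07 ± 0.09 on the log2 scale (edgeR adjusted p = 3.36e-12). The genotype effect in members alone did not pass (0.85, edgeR adjusted p = 0.453). It was 0.43 to 1.40 over 15 alternatives and passed in 4 of them. The chemokine Ccl3 had 0.51 ± 0.08 (edgeR adjusted p = 0.000276) and the surface antigen Cd52 0.44 ± 0.09 (edgeR adjusted p = 0.0322). Ttr, transthyretin, which marks choroid plexus, had -5.71 ± 0.79 (edgeR adjusted p = 1.39e-05). It had 0 and 3 UMIs in cKO members and 96 and 2 in Control members, and 86 of the 96 UMIs of Control replicate 1 came from 1 member. Without Control replicate 1 only Ccl4 of the 4 passed, at 0.99 (edgeR adjusted p = 6.05e-06), while Ccl3 was 0.47 (edgeR adjusted p = 0.263), Cd52 0.26 and Ttr -3.85 (edgeR adjusted p = 0.988 for both). Without cKO replicate 1, 26 genes were called. Free RNA of Ccl4 in near-empty droplets was at 487 and 469 CPM in cKO libraries and 499 and 506 CPM in Control libraries. Its part in the result was not tested. The make-up of the state-gene-positive class also differed between the genotypes. Cells excluded by heat-shock genes alone were 16.0% and 25.6% of kept cells in cKO, against 14.3% and 9.34% in Control. Cells with 3 or more MGnD genes were 21.9% and 13.7% in cKO, against 25.1% and 26.4% in Control. The part of this make-up in the interaction was not tested. For Cdkn1a, Cx3cr1 and Hist1h2ac the interaction was 0.30, -0.04 and -0.45, with edgeR adjusted p of 0.948, 0.970 and 0.901, which does not show that the genotype effect was equal in both classes. In state-gene-positive cells alone, the genotype log2 fold change was 1.16 for Cdkn1a (edgeR adjusted p = 0.000683) and -0.85 for Cx3cr1 (edgeR adjusted p = 0.0178). Both passed there too, so these differences were not particular to the members. Hist1h2ac had -0.93 there and did not pass (edgeR adjusted p = 0.121). These comparisons share their libraries.

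Variation among members was ranked by variance over mean (Fano factor) in members thinned to 2000 UMIs. The 12 genes with the largest factor included Cst3, Malat1, Apoe, Ccl4, Adamts1, Ccl3, Tmsb4x, Rgs1, Btg2, Fosb and Fos. Abundant genes can rank high without being concentrated in few cells. Cst3 had a mean of 74.8 to 93.6 UMIs, Malat1 69.2 to 72.5 and Tmsb4x 23.5 to 25.1. The top 5% of members held only 8.61 to 10.6%, 9.21 to 10.6% and 9.04 to 10.0% of their UMIs. Apoe had a Fano factor of 4.83 to 6.82 over the 4 libraries, where independent counting gives a value near 1 for a uniform population. In this random draw, which is separate from the one used for detection above, 59.96 to 70.7% of members had no Apoe UMI, against 31.4 to 51.0% for a Poisson distribution with the same mean. The 5% of members with the most Apoe held 42.2 to 52.0% of its UMIs. Ccl4 was absent in 76.9 to 87.6% of members and the top 5% of cells held up to 66.3% of its UMIs. The proteinase gene Adamts1 was absent in 88.4 to 90.6% and the top 5% held 72.3 to 82.7%. The immediate-early gene Fos, by comparison, was absent in 15.3 to 23.2% of members, and Btg2, an antiproliferative gene, in 2.13 to 4.55%. Free RNA of Apoe in near-empty droplets came to 2.62 to 8.83 UMIs per 2000, against a mean of 0.674 to 1.16 in members, so members held less Apoe than the free RNA. Dividing the members of each library at their median depth changed some lists more than others. The log2 ratio of the deeper to the shallower part averaged 0.00 for homeostatic genes, -0.01 for MGnD genes and -0.05 for immediate-early genes. It averaged 0.11 for heat-shock genes, 0.09 for mitochondrial genes and -0.06 for ribosomal protein genes. For type I interferon genes it averaged -0.11 (-0.21 to 0.02 over the libraries), and for cytokine genes -0.16 (-0.28 to -0.03).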

How the data were processed

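The 4 libraries were made with the droplet method of 10x Genomics (3′ v3.1), per the labels' protocols. Per the submitters' processing notes the authors used Cell Ranger 4.0.0 with the mm10 genome; the deposited values are whole UMI counts, not normalized, for 32372 gene features and for near-empty droplets too. The deposited barcode and feature names (other: labels, no measurement) only name rows and columns. Multi-mapped reads and near-identical genes, such as histones, could share reads.

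The members and lists were chosen with earlier results of these data known. The ribosomal list was narrowed after its first pattern was seen to match kinases. Members follow the rule in the report; no doublets were removed. Scrublet (scanpy 1.11.5) called 0, 3, 1 and 2 doublets by its own threshold in cKO 1, cKO 2, Control 1 and Control 2, so removal of the highest scores (0.8% per 1000 cells) was tried only as an alternative at a fixed rate.

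UMIs of members were summed per library, because cells are not replicates, and tested with edgeR 4.0.16 in R 4.3.3 (TMM, filterByExpr, quasi-likelihood F test, two-sided, Benjamini-Hochberg at 0.05). The genotype fit had 2 residual degrees of freedom. Genes of the rule were not tested. Classes were matched in bins of 500 UMIs. DESeq2 1.42.0 was an alternative. The tests were run on simulated counts with the same dispersion for every gene. Real genes can differ in dispersion, so this does not show how the tests perform on these libraries. Genes were named by a fixed rule. Genotype genes had to pass the threshold with non-overlapping groups and a mean log2 CPM of 4 or more, up to 10 per direction. Where few passed, the 5 smallest p at 5 or more were added. Class genes had to pass the threshold in the same direction in 4 of 4 libraries, with a mean log2 CPM of 5 or more. This leaves Axl, Fabp5 and H2-Ab1 to their lists. The 12 largest per direction were named. From each list came the gene with the smallest p (genotype) or up to 3 genes by p (class). Other genes are given as checks or chosen after seeing values, as stated. Shares used exact permutation tests. Depth was 33130800 to 47574406 UMIs per library; levels of rare genes rest on few UMIs. Of the genes that the naming rule selected, 1 is not reported here.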

Additional observations from a re-analysis of the deposited data

Results flagged for a closer look

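For 4 genes the test of the difference itself passed. They had a genotype difference in members that differed from that in state-gene-positive microglia, by the interaction term of edgeR. Ccl4 differed by 1.07 on the log2 scale, Ccl3 by 0.51 and Cd52 by 0.44. In Cd52, the genotype log2 fold change was 0.40 in members and -0.01 in state-gene-positive cells. In Ccl3 it was 0.25 in members and -0.26 in state-gene-positive cells, and in Ccl4 it was 0.85 in members and -0.22 in state-gene-positive cells. Ttr differed by -5.71, and without Control replicate 1, whose member with 86 UMIs held most of the Ttr, it was -3.85 and no longer passed (edgeR adjusted p = 0.988). Only Ccl4 passed in each of the 6 alternatives run, from 0.92 to 1.23 on the log2 scale.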

How the results depend on the processing

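The member share of kept cells, cKO minus Control, was below 0 under all alternatives run except one: without Hspa1a and Hspa1b in the rule it was 5.16 points. Leaving out 1 library gave -4.73 to -3.02. No test of a share could pass 0.05. Cdkn1a, Cx3cr1 and Hist1h2ac passed in all 15 alternatives of the genotype fit, the highest edgeR or DESeq2 adjusted p being 0.0182. The count of genotype calls was 28 with a replicate block, 34 without a filter on low counts and 3 to 43 with 1 library left out. The libraries share only a replicate number: same-numbered deviations correlated at -0.00216 over 4699 genes. The class comparison gave 182 calls without a library block, 294 with DESeq2, 2729 with depth not matched, 313 with cells thinned to 2000 UMIs, 17 against cells with exactly 1 state-gene UMI, and 479 (without Control replicate 1) to 830 with 1 library left out. The interaction gave 9 calls with depth not matched, 1 with DESeq2, and 2 (without Control replicate 1) to 26 (without cKO replicate 1) with 1 library left out. Beyond what their construction shows, the causes were not tested.

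Genotype log2 fold changes that turned sign were those of Crybb1 (-0.091 to 0.051 with 1 library left out, with 0.043 for the fit without cKO replicate 2; 0.10 in members thinned to 2000 UMIs, 0.11 with the rule on thinned cells and 0.014 without heat-shock genes in the rule), Apoe (-0.18 to 0.73 with 1 library left out) and Xist (-0.070 to 15.57, the last without Control replicate 2, where the remaining Control library had no Xist UMI). Against cells with 1 state-gene UMI, Hspe1 was 0.016, Atxn1 -0.026 and Cox8a 0.032. With depth not matched, Cebpb was 0.0045 and Tgfb1 -0.021, and in thinned cells Bax was 0.039. Depth limits rare genes: Cdkn1a rests on 48 to 146 UMIs per library. Rules without Tnf or MHC class II genes, and the genotype fit without heat-shock genes, were added after seeing the data.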
